A study of Mus musculus with 6 samples.

Results

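Leukaemia inhibitory factor (LIF) keeps mouse embryonic stem (ES) cells self-renewing in serum. It binds the receptor chain Lifr, which pairs with the shared signalling chain gp130, encoded by Il6st. The kinase Jak1, held on the tails of these receptors, phosphorylates the transcription factor Stat3, which then dimerises and enters the nucleus. Socs3 is induced by Stat3 and shuts the receptor down by binding gp130 and the Janus kinases, while Socs2, of the same family, is best known for limiting growth hormone signalling. The Pim genes encode serine/threonine kinases that promote survival and growth and are induced through STAT proteins.

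The genes described here are these 9, Lifr, Il6st, Jak1, Stat3, Socs2, Socs3, Pim1, Pim2 and Pim3, of 18193 named on the array. Every probe set that the platform annotation gives to exactly 1 of these symbols was taken, which gave 29 probe sets of the 45037 that measure transcripts. All 29 passed into every test, since no filter on low signal was used. The signal is on a log2 scale, so a difference of 1 is a doubling. Signals of different probe sets depend on their probes, so the levels of these 9 genes were not set against each other.

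The study asked which mouse genes change when WBSCR1, the human counterpart of the translation initiation factor Eif4h, is switched on. The cells were 3 clones, A1, A3 and A4, of the mouse ES line EBRTcH3, all carrying a coding region of human WBSCR1, tagged with 3xFLAG, at the ROSA26 locus under a promoter that tetracycline keeps off. Control cells were grown with tetracycline, induced cells for 24 h without it, and each clone gave 1 array of each kind, 6 in all. Both groups grew in medium with serum and LIF, so LIF was present on every array, and its removal was not studied. The transgene and the removal of tetracycline cannot be told apart in this design. A clone is a single derivation, and its comparison with the other clones rests on 1 control and 1 induced array of each.

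Array medians lay between 5.11 and 5.19. No probe set of the whole array passed the test of induction, and none of the 6 probe sets for mouse Eif4h did, with differences from -0.27 to 0.074 (limma adjusted p 0.999942 for each). Which of these could detect the human sequence was not analysed here, so they are no check of the transgene. The ES cell label was borne out by 8 of 8 ES cell markers, among them Pou5f1 and Nanog, whose mean signal was 12.34 to 12.55 on the 6 arrays, while the 8 fibroblast or feeder markers averaged 4.54 to 4.69. A group of 63 probe sets rose by at least 1 in clone A1 and fell by at least 1 in clone A4, so that the induced A1 and the control A4 arrays stood apart. It held 0 of the 29 probe sets, which tells little of them, since it held only 63 of all 45037. The A3 differences called below were also computed without these arrays.

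Stat3 dimers bind a palindrome with the letters TTCNNNGAA, and its matches for Socs3 and Cish are printed below. In the RefSeq promoter table of assembly GRCm38.p6, which spans 250 bases before to 50 bases after each start, 2726 of 32851 windows held the motif, or 8.3%. For the genes described here, 8 had entries, with 10 windows, and 1 of these windows, that of Socs3, held it. The motif lay 154 to 146 bases before the start used for that window. This start and the motif both lie inside the gene span given for Socs3 below. Socs2 had no entry. Of the 55 windows for 39 other genes of the pathway, 3 held it, 1 for Cish and 2 for the adaptor gene Gab1. The 2 Gab1 windows hold the same site, which is not printed. Cish encodes a further SOCS protein, and its window held 2 copies, of which the first begins at the annotated start. The sequences below run 5′ to 3′ on the strand of the gene, with the motif in capitals, and lie at chr11:117969502-117969530 on the minus strand for Socs3 and at chr9:107296654-107296683 on the plus strand for Cish.
Socs3: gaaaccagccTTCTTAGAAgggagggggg
Cish: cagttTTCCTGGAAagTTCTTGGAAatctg
A match describes these letters only, and binding was not measured.

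**Figure D1:**
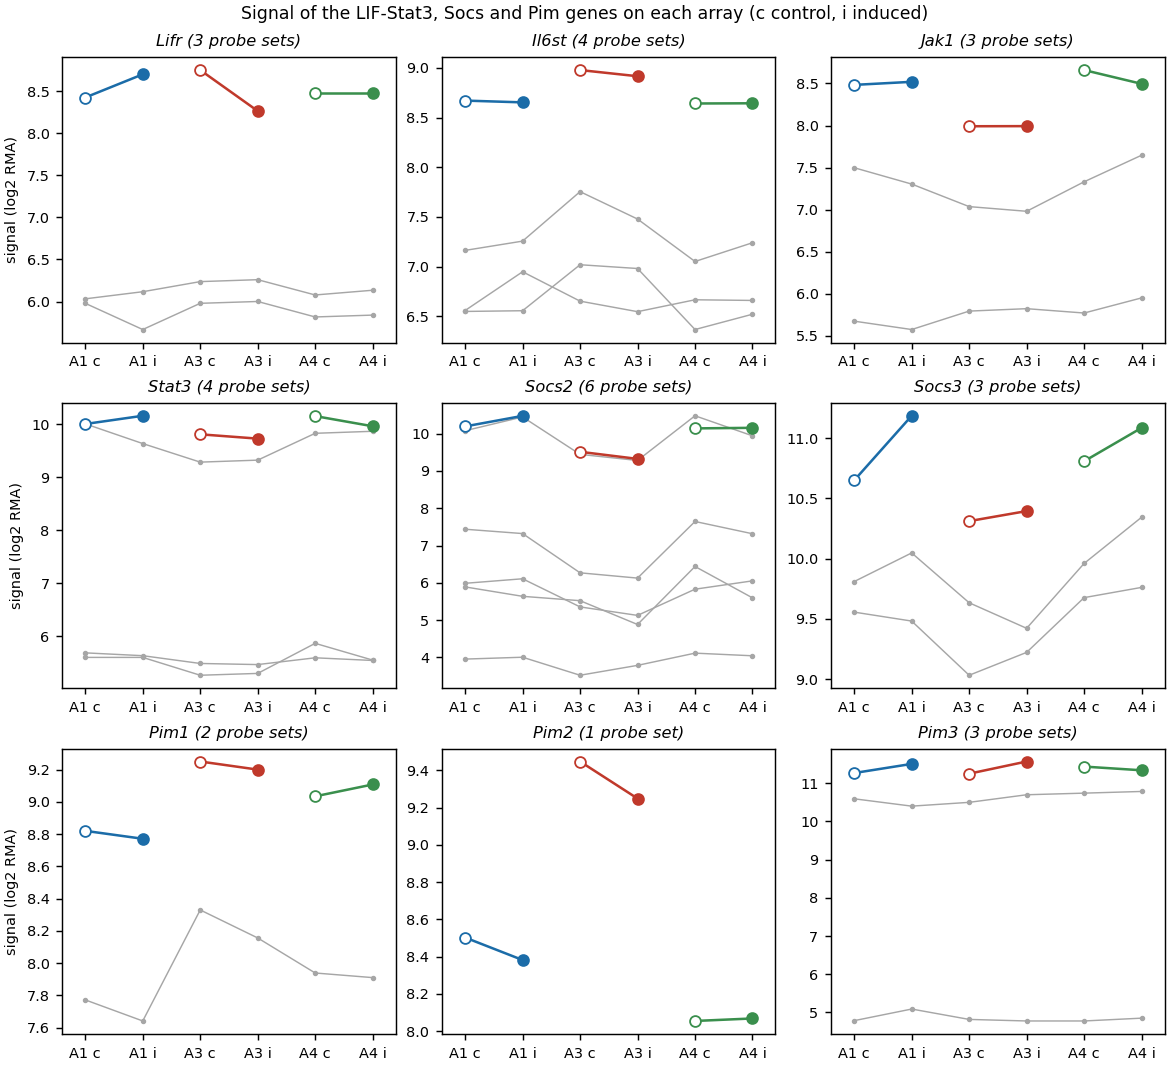
Signal (log2 RMA) of all 29 probe sets on each of the 6 arrays, with 1 panel for each gene and arrays along the axis by clone (c control, i induced). Coloured circles joined by a line are the brightest probe set of the gene, open for control and filled for induced, and grey lines are its other probe sets. The A3 arrays lie below the other 4 for every probe set of Stat3, Socs2 and Socs3 and above them for Pim1 and Pim2.

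The design gives comparisons between conditions and between clones. None of the 29 probe sets passed the test of induced against control arrays, and several differed between clones, mostly through clone A3. In the test over all 3 clones, 6 of the 29 probe sets passed at an adjusted p under 0.05, of 3 genes, against 5.54% of all probe sets. These were 4 for Socs2, 1 for Jak1 and the only 1 for Pim2. In the difference of A3 from the mean of A1 and A4, 9 probe sets passed as lower, against 5.68% of all probe sets. A further 3 passed as higher, against 3.89%, which made 12 in all, against 9.57%. Probe sets of 1 gene are not independent, and 5 of the 12 were of Socs2 and 2 of Socs3. Without the induced A3 array the 12 became 2, without the induced A1 array 5 and without the control A3 array 6, and the 6 of the test over all clones became 2 without either induced array. Without both the control A4 and induced A1 arrays, in a fit with clone as the only term, 2 passed in the A3 comparison, Pim2 (limma adjusted p 0.042) and the Socs2 probe set 1438470_at (0.0354), and 0 over all clones, while all 12 kept their sign. The median size of that difference, whatever its sign, was 0.43 over the 29 probe sets and 0.14 over all probe sets. The 2 A3 arrays lay below all 4 others for 15 of the 29 (16.6% of all probe sets) and above them for 7 (19.8%). The 15 were 6 of Socs2, 4 of Stat3, 3 of Socs3 and 2 of Jak1. Of the 29, 27 were brighter than the median probe set of the array, so these shares over all probe sets include many dimmer ones.

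**Figure D2:**
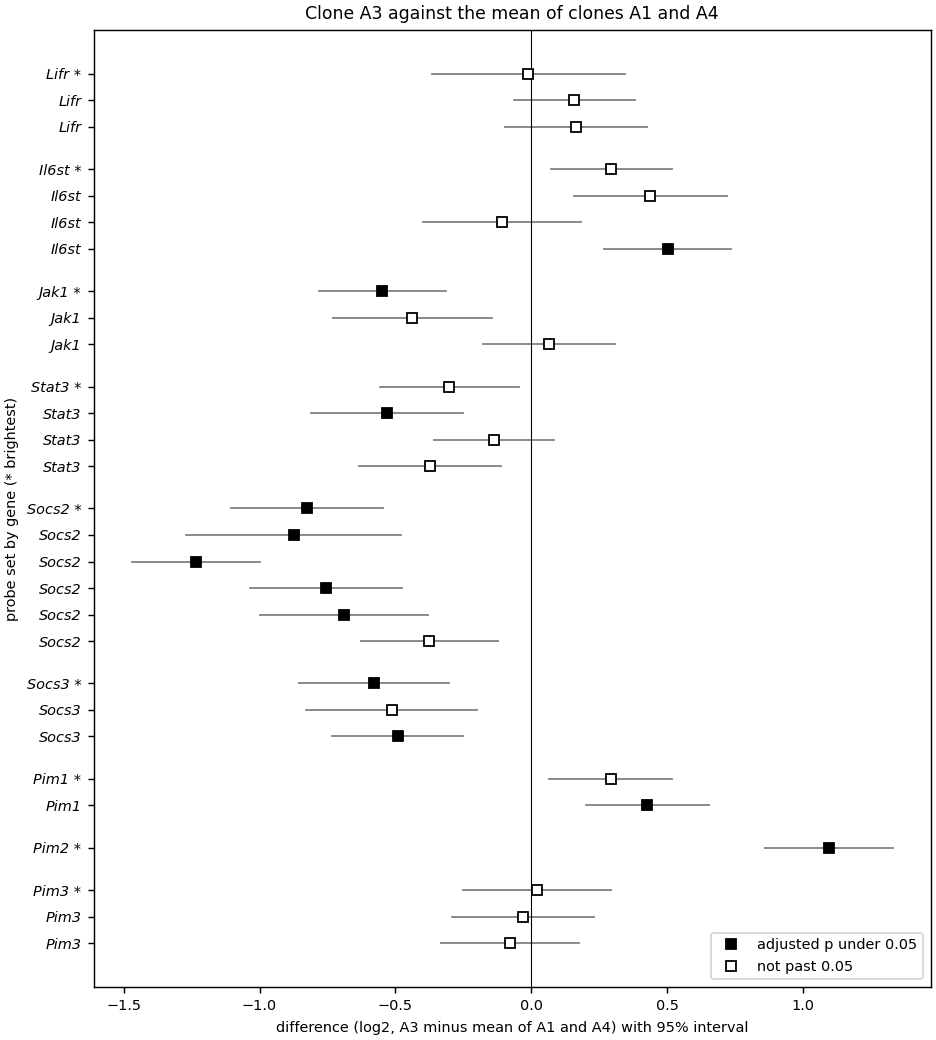
Difference of clone A3 from the mean of clones A1 and A4 (log2) for each of the 29 probe sets, grouped by gene, with 95% intervals from limma. Filled squares passed at an adjusted p under 0.05 and stars mark the brightest probe set of a gene. The intervals of Socs2 lie below 0, that of Pim2 above 0, and those of Lifr and Pim3 span 0.

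Of the receptor chains, Lifr had no probe set that differed between clones past the threshold and Il6st had 1. Lifr (chromosome 15, 7090610 to 7197489 in GRCm38.p6) was read best by 1454984_at, at 8.42, 8.75 and 8.47 on the control arrays of A1, A3 and A4 and at 8.70, 8.26 and 8.47 on the induced arrays. The A3 pair thus held both the highest and the lowest value, and the arrays of the clones overlapped. A3 differed from the other clones by -0.01 ± 0.15 (SE, 95% interval -0.37 to 0.34), and the other 2 Lifr probe sets gave 0.16 each.

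Il6st (chromosome 13, 112464070 to 112506860) encodes gp130, the chain that all cytokines of the interleukin-6 family share. Its brightest probe set, 1452843_at, read 8.67, 8.98 and 8.64 on the control arrays of A1, A3 and A4 and 8.65, 8.92 and 8.64 on the induced arrays. Both A3 arrays were above the other 4, which had an SD of 0.0133 (n = 4). The difference of 0.29 ± 0.096 (SE) did not pass over all probe sets (limma adjusted p 0.104). Another probe set, 1421239_at, was higher in A3 by 0.50 ± 0.10 and passed (adjusted p 0.0204), with 7.02 and 6.98 on the A3 arrays against 6.37 to 6.56 on the others. It did not pass without the control A4 array (adjusted p 0.07) or without the induced A1 array (0.0833). The probe set 1460295_s_at differed by 0.44 (adjusted p 0.0657) with A3 again above the rest, and 1437303_at gave -0.11. So 3 of the 4 had A3 on top and 1 of the 4 passed.

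Jak1 (chromosome 4, 101151974 to 101265282), the kinase that gp130 needs to phosphorylate Stat3, was lower in A3. The probe set 1433805_at read 8.48, 7.99 and 8.66 on the control arrays of A1, A3 and A4 and 8.52, 7.99 and 8.50 on the induced arrays. The A3 arrays lay below the others without overlap, by 1.46-fold (-0.55 ± 0.10, SE, limma adjusted p 0.0147), and the test over all clones passed too (adjusted p 0.0429). The call was lost without the control arrays of A3 or A4 and without the induced arrays of A1 or A3 (limma adjusted p 0.0919, 0.0514, 0.0689 and 0.0931). Of the other probe sets, 1433803_at differed by -0.44 (adjusted p 0.0729), with both A3 arrays below the rest, and the dimmer 1433804_at by 0.07.

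Stat3 (chromosome 11, 100886806 to 100939594) had its A3 arrays lowest with all 4 probe sets. The brightest, 1426587_a_at, read 10.01, 9.81 and 10.16 on the control arrays of A1, A3 and A4 and 10.16, 9.73 and 9.97 on the induced arrays. That is a difference of -0.30 ± 0.11 (SE), which did not pass (adjusted p 0.142). The probe set 1460700_at read 9.29 and 9.33 in A3 and 9.64 to 10.01 in the other clones, and its difference of -0.53 ± 0.12 passed (limma adjusted p 0.0327), while the test over all clones gave 0.0905. The call was kept without the control A4 array or the induced A1 array (limma adjusted p 0.0486 and 0.0376) and lost without both (0.059). The remaining probe sets, both near the median signal of the array, gave -0.37 (adjusted p 0.0844) and -0.14. The arrays measure Stat3 transcript and not its phosphorylated, active form.

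Among the Socs genes, Socs2 (chromosome 10, 95383903 to 95417321) differed most between clones. The brightest probe set, 1418507_s_at, read 10.20, 9.51 and 10.14 on the control arrays of A1, A3 and A4 and 10.48, 9.32 and 10.16 on the induced arrays. Every A3 value was below every A1 and A4 value, and A3 was lower by 1.77-fold (-0.82 ± 0.12, SE, limma adjusted p 0.00615, and 0.0174 over all clones). The call was lost without induced replicate 2, the induced A3 array (adjusted p 0.0734), and without both the control A4 and induced A1 arrays (0.0591).

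The other 5 Socs2 probe sets went the same way, with no overlap between A3 and the rest in any. The largest difference was that of 1438470_at, which read 7.44, 6.27 and 7.64 on the control arrays of A1, A3 and A4 and 7.32, 6.13 and 7.32 on the induced arrays. A3 was 2.35-fold lower there (-1.23 ± 0.10, SE, limma adjusted p 0.000725, and 0.00229 over all clones). The probe sets 1449109_at, 1446085_at and 1442586_at gave -0.87, -0.75 and -0.69, with adjusted p of 0.0187, 0.0087 and 0.018 in limma. The dimmest, 1441476_at, read 3.52 to 4.11 on all arrays and gave -0.38 (adjusted p 0.0748). Without the induced A1 array 1446085_at and 1442586_at lost the call (limma adjusted p 0.0512 and 0.0578). With all arrays, 5 of 6 passed in the A3 comparison and 4 of 6 in the test over all clones. The clones A1 and A4 differed by 0.19 ± 0.14 (SE) with the brightest probe set, a difference within the spread.

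Socs3 (chromosome 11, 117966079 to 117970336), the feedback inhibitor of gp130 whose promoter letters are printed above, was also lower in A3. The probe set 1455899_x_at read 10.65, 10.31 and 10.81 on the control arrays of A1, A3 and A4 and 11.19, 10.39 and 11.09 on the induced arrays. Both A3 arrays were the lowest, by 1.49-fold on average (-0.58 ± 0.12, SE, limma adjusted p 0.0224), whereas the test over all clones gave 0.0647. The call was lost without the control array of A4 and without each of the induced arrays of A1, A3 and A4 (limma adjusted p 0.0571, 0.0829, 0.231 and 0.0501). The probe set 1416576_at gave -0.49 ± 0.10 and passed (adjusted p 0.0251), though not without the control A4 or induced A1 array (0.0649 and 0.0574), and 1456212_x_at gave -0.51 ± 0.14 and did not (0.0563). The suffix x marks probe sets with probes that may also match other transcripts.

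The Pim kinases, which act as soon as they are made and so follow their transcript and protein levels closely, differed among themselves. Pim2 (chromosome X, 7878306 to 7883432) has a single probe set, 1417216_at, which read 8.50, 9.45 and 8.06 on the control arrays of A1, A3 and A4 and 8.38, 9.25 and 8.07 on the induced arrays. The clones were ordered A3, A1, A4 in both conditions. A3 was 2.14-fold higher than the mean of the other clones (1.10 ± 0.10, SE, limma adjusted p 0.00112, and 0.00299 over all clones), and the call of A3 was kept under every alternative that gave this comparison. A1 lay above A4 by 0.38 ± 0.12 (SE, unadjusted limma p 0.012, adjusted p 1), so the order of A1 and A4 did not pass.

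Pim1 (chromosome 17, 29490785 to 29496111) was highest in A3 with both its probe sets. The brighter, 1435458_at, read 8.82, 9.25 and 9.03 on the control arrays of A1, A3 and A4 and 8.77, 9.20 and 9.11 on the induced arrays, a difference of 0.29 ± 0.098 (SE) that did not pass (limma adjusted p 0.113). The other, 1423006_at, read 8.33 and 8.16 in A3 and 7.64 to 7.94 elsewhere, and passed with 0.43 ± 0.098 (adjusted p 0.0342), but not without the control A4 or induced A1 array (0.111 and 0.115). With 1435458_at the clones were ordered A3, A4, A1, the reverse of Pim2 for the last pair (A1 minus A4 -0.28 ± 0.11, SE, unadjusted limma p 0.0418, adjusted p 1).

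Pim3 (chromosome 15, 88862194 to 88865726) had no probe set past the threshold. The probe set 1437100_x_at read 11.27, 11.25 and 11.44 on the control arrays of A1, A3 and A4 and 11.51, 11.57 and 11.34 on the induced arrays. The clones overlapped, and A3 differed by 0.02 ± 0.12 (SE, 95% interval -0.25 to 0.29). The other probe sets gave -0.03 for 1451069_at and -0.08 for 1438956_x_at, the latter at 4.78 to 5.09 on all arrays.

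The genes around Pim3 did differ. Of the 50 expressed neighbours within 5 Mb, taken as 1 probe set a gene with a mean of at least 6, 41 were lower in A3, 26 passed as lower and the median difference was -0.49 (quartiles -0.66 and -0.10). The test over all clones called 44% of them, against 9.95% of 9720 expressed genes. Without both the control A4 and induced A1 arrays the median was -0.43 with 42 lower, and 7 passed as lower. For the other 8 genes the medians of the neighbours were -0.098 to 0.097, while the share called over all clones was 36.8% of 19 for Jak1, with 5 lower in A3, 22.7% of 22 for Il6st, 17.6% of 34 for Pim2 and 5.98% to 10.9% for the rest. For Pim2 the 34 neighbours had a median of 0.097, and 294 expressed genes of the X chromosome had a median of 0.042.

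**Figure D3:**
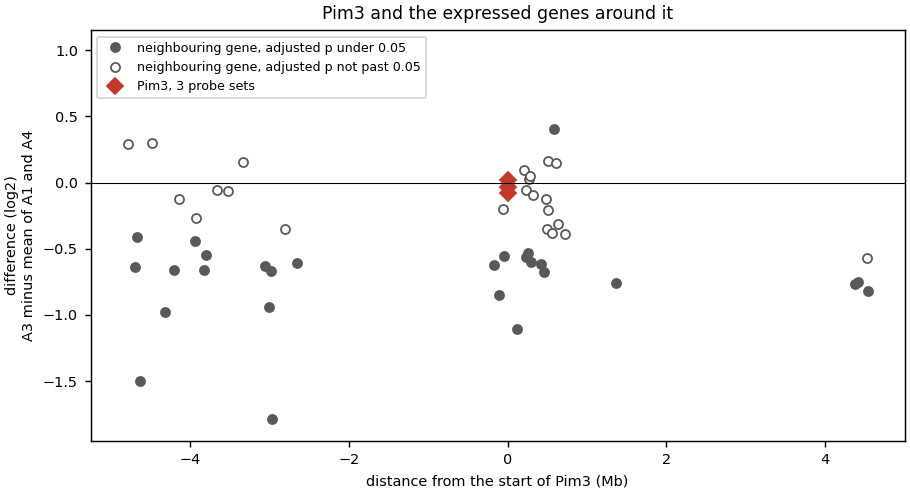
Difference of clone A3 from the mean of clones A1 and A4 (log2) for the 50 expressed genes within 5 Mb of Pim3, against their distance from its start in Mb. Grey filled circles passed at an adjusted p under 0.05, open circles did not, and red diamonds are the 3 probe sets of Pim3, which lie at 0.02, -0.03 and -0.08 while 41 of the 50 neighbours lie below 0.

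Comparisons of the other clones added little. Of the 29 probe sets, 0 passed for A1 against the mean of A3 and A4 (0.666% of all probe sets). For A1 against A4 0 passed (0.0178%). There 2 of the 29 had an unadjusted limma p under 0.05, those of Pim1 and Pim2 above. The share of all probe sets at that unadjusted level is not given here. For A4 against the mean of A1 and A3, 2 of the 29 passed (0.486%), Pim2 at -0.83 (limma adjusted p 0.0254) and the Socs2 probe set 1438470_at at 0.69 (adjusted p 0.0436). Both contrasts hold A3 in the mean that A4 was compared with.

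Markers of other cell types also moved with A3. The 7 primitive endoderm markers were all lower there, with a list mean of 4.83 to 4.92 on the A3 arrays against 5.27 to 5.73 on the others, and 5 passed, among them Gata6 (-0.73 ± 0.10, SE) and Dab2 (-1.12 ± 0.10). Of 7 primed epiblast markers 6 were higher, 3 of them past the threshold, including Otx2 (2.88 ± 0.16, SE, limma adjusted p 0.000164). The other 1, Sox3, was lower and passed. The list means were 7.46 to 7.72 in A3 and 6.77 to 6.98 elsewhere. Of 5 trophectoderm markers 1 passed, Ascl2, at 0.84, and 0 of the 8 ES cell and 0 of the 8 fibroblast markers did. The ES cell markers had 5 lower in A3 and 3 higher. Among them Esrrb lay just short of the threshold, at -0.45 ± 0.12 (SE, limma adjusted p 0.0504), with both A3 arrays lowest. Over all probe sets 5.68% passed as lower in A3 and 3.89% as higher. Without either the control A4 or the induced A1 array 8 of these 10 marker calls were kept, Sox3 and Pdgfra being lost, and without both 3 were kept, Otx2, Gata4 and Dab2. Gata4 was lower in A3 with only 1 of its 2 probe sets, at a mean of 5.19, close to the array medians. Dab2 was lower with 3 of its 4. The called Gata6, Sox7 and Pdgfra had means of 5.36, 5.47 and 4.70, also near or below those medians. Gata6 passed over all clones with 1 of its 3 probe sets. Ribosomal 18S control probe sets averaged 6.61 and 7.27 on the A3 arrays and 5.66 to 7.03 on the others, so the clones overlapped. The part of the marker differences in the differences of the Socs and Pim genes was not tested.

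On induction, none of the 29 probe sets passed. The test called 0 of 29, against 0% of all 45037, and 0 of the 29 had an unadjusted p under 0.05, against 1.5% of all. With the clone as a block, which pairs the arrays of each clone, 0 of 29 passed and 2 had an unadjusted limma p under 0.05, against 3.42% of all. Of the 29 differences 15 were above 0 and 14 below, with a median of 0.0021 (-0.0031 over all probe sets). The same direction in all 3 clones was seen for 2 upwards (9.9% of all probe sets) and for 4 downwards (11.9%). Without the block, the 95% interval lay within 1 of 0 for 26 of the 29 and within 0.5 for 17. A doubling and a halving thus both lay outside the interval for 26 of them. The intervals of Pim2 and of the Socs2 probe sets 1438470_at and 1442586_at reached past -1, and no interval reached 1. All these intervals take in the distance between clones. With the clone as a block those of Pim2, 1438470_at and 1442586_at were -0.32 to 0.12, -0.42 to 0.027 and -0.87 to -0.29. Each had a limma adjusted p of 0.999861.

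**Figure D4:**
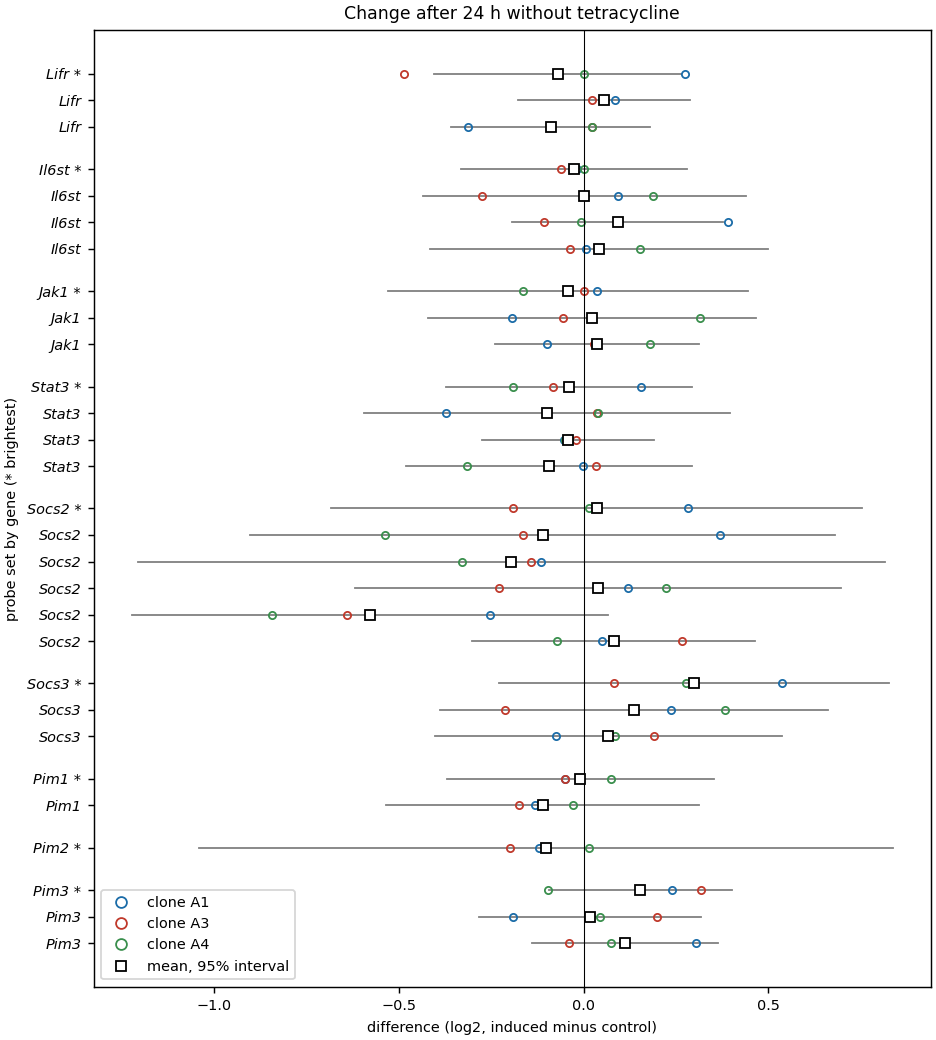
Induced minus control difference (log2) for each of the 29 probe sets, grouped by gene. Coloured circles are the difference within clones A1, A3 and A4, and squares are their mean with the 95% interval from limma without a block. Every interval includes 0, and the circles of a gene's clones lie on both sides of 0 for most probe sets.

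A probe set of Socs3 and another of Socs2 had the smallest p-values among the 29 with the block. The brightest Socs3 probe set was higher in each induced array than in the control array of the same clone, the differences in A1, A3 and A4 being 0.54, 0.08 and 0.28. The mean difference was 0.30 ± 0.23 (SE, 95% interval -0.23 to 0.83, limma adjusted p 0.999942), ranging from 0.15 without the induced A1 array to 0.55 without the induced A3 array. With the clone as a block the unadjusted limma p was 0.0291 and the adjusted p 0.999861. Its other probe sets gave 0.14 and 0.067, with 1 clone of the 3 going down in each, so they did not bear the rise out in all clones.

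The Socs2 probe set 1442586_at was lower in each induced array, the differences in A1, A3 and A4 being -0.25, -0.64 and -0.84. Its mean difference was -0.58 ± 0.28 (SE), with an unadjusted limma p of 0.0721 that became 0.00191 with the block, at an adjusted p of 0.999861. The brightest Socs2 probe set gave 0.036 ± 0.31, and 3 of the 6 lay on each side of 0, so the Socs2 probe sets disagreed.

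The other genes had small and mixed differences with their brightest probe sets. The signalling chain gave -0.07 ± 0.14 (SE) for Lifr, -0.026 ± 0.13 for Il6st, -0.042 ± 0.21 for Jak1 and -0.04 ± 0.14 for Stat3. The Pim genes gave -0.0086 ± 0.16 for Pim1, -0.10 ± 0.40 for Pim2 and 0.15 ± 0.11 for Pim3. The interval of Pim2 was the widest of these, -1.04 to 0.84, in a test without the block that takes in the distance between its clones. Within A1, A3 and A4 it differed by -0.12, -0.20 and 0.01. Lifr went up by 0.28 in A1 and down in A3 (-0.49), and stayed at 0.00 in A4.

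Of 51 further genes of the pathway, listed by role, 48 had a probe set with a single symbol. On induction 0 passed the threshold and 0 had an unadjusted limma p under 0.05. The smallest belonged to the immediate early gene Fos, at 0.19 ± 0.17 (SE, unadjusted limma p 0.276), and to the phosphatase gene Ptpn6, at 0.13 (0.292). Between clones 4 of the 48 passed, against 5.54% of all probe sets and 9.95% of 9720 expressed genes. In the comparison of A3 with the other clones 7 passed as lower, against 5.68% of all probe sets, and 0 as higher, against 3.89%. Of the 48, 20 lay below 0 and 28 above, with a median of 0.066. The brightest probe sets of 43 genes were above the median signal, so shares over all probe sets include many dimmer ones. The 4 became 1 without the control A1, induced A1 or induced A3 array and 2 without the control A3 array.

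The 4 that passed over all clones were all lower in A3. Gbx2, a homeobox gene that LIF and Stat3 induce in ES cells, read 10.37, 9.24 and 10.22 on the control arrays of A1, A3 and A4 and 10.50, 9.05 and 10.14 on the induced arrays, a difference of -1.16 ± 0.11 (SE, limma adjusted p 0.00115). Bcl3, an atypical IκB protein, gave -0.67 ± 0.11 and Cntfr, the binding chain for ciliary neurotrophic factor, -0.73 ± 0.12. Socs4 gave -0.77 ± 0.12 with its brightest probe set, and only 2 of its 4 probe sets had that sign.

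The 3 further genes lower in A3, named after their values were seen, were Klf4 at -0.51 ± 0.12 (SE), Klf5 at -0.44 ± 0.097 and Pias3 at -0.46 ± 0.11 (limma adjusted p 0.0384, 0.0284 and 0.0361). None of these 3 passed without the control A4 array or without the induced A1 array, whereas the 4 above passed in both fits, and Gbx2 alone passed without both arrays (adjusted p 0.0389). Klf4 and Klf5 are transcription factors of the naive state, and Pias3 encodes an inhibitor of Stat3. By role, the 12 genes described as LIF and Stat3 targets had 8 lower in A3, 4 of them past the threshold, and a median of -0.15. Over all probe sets 5.68% passed as lower and the median was 0.031. Over 9720 expressed genes the median was -0.014. The 12 targets averaged 9.25 to 9.57 on the arrays, so the values over all probe sets include many dimmer ones. How many expressed genes passed as lower is not given here. The 8 other Janus kinases and STATs had 7 higher and 0 past the threshold (median 0.20), and the 6 ligands had 5 higher and 0 past it (median 0.12). Of the 12 targets, 9 had entries in the promoter table, and 0 of their 11 windows held the Stat motif.

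**Figure D5:**
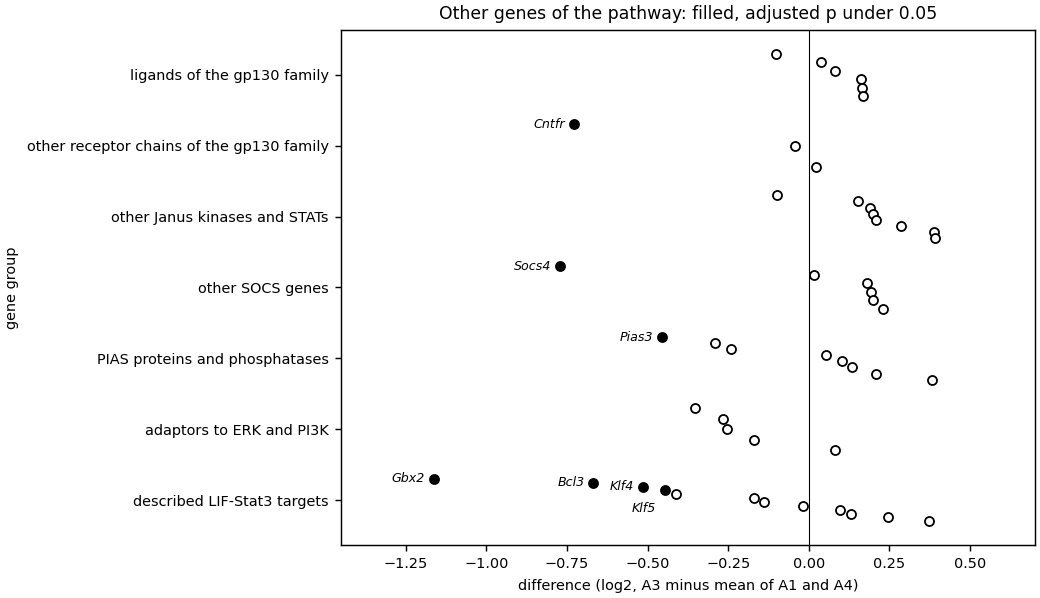
Difference of clone A3 from the mean of clones A1 and A4 (log2) for 48 other genes of the pathway, with 1 circle for the brightest probe set of each gene and 1 line for each gene group. Filled, named circles passed at an adjusted p under 0.05. All 7 of them lie below 0, between -1.16 for Gbx2 and -0.44 for Klf5.

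For the 3 genes whose brightest probe set varied most over the arrays, the most similar patterns were looked up among expressed genes, as the root mean square difference of centred values over 6 arrays. Pim2 (SD 0.60) was closest to Id2 (0.10 and r = 0.995), Acsl5 (0.11 and r = 0.988) and Igsf23 (0.11 and r = 0.978). Socs2 (SD 0.45) was closest to Gng10 (0.018 and r = 0.999), Noct (0.055 and r = 0.992) and Pggt1b (0.056 and r = 0.991). Socs3 (SD 0.36) was closest to Wdr20 (0.060 and r = 0.984), Gtf2a1 (0.070 and r = 0.979) and Gtpbp10 (0.085 and r = 0.966). The 6 arrays are 3 pairs of a clone, so a likeness in these values is mostly a like difference of A3 from the other clones.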

How the data were processed

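RNA of 3 mouse ES clones, each with and without tetracycline, was hybridized to 6 Affymetrix whole-genome mouse arrays, 1 for each clone and condition. The deposited values are log2 signals that the authors made by robust multiarray average (RMA) with the affy package of Bioconductor (version not given in the sources). RMA corrects background, equalises the distributions of the arrays and summarises the probes of a set, and it compresses differences at low signal. No further normalization was applied. Of 45101 probe sets, the 64 Affymetrix controls entered no test. The platform annotation gave 1 symbol for 34945, several for 932 and none for 9160 of the rest.

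Groups, clones and replicate numbers (1, 2 and 3 for A1, A3 and A4) came from the sample labels. Tests used limma 3.58.1 (lmFit and eBayes, R 4.3.3), two-sided, with Benjamini-Hochberg adjustment over 45037 probe sets and a threshold of 0.05. Induction was tested with condition as the only term, since the study's methods name a t-test without mention of pairing, and the clone as a block was an alternative. Replicate numbers pair the arrays by clone: deviations from the group means correlated at r = 0.313 for A1, 0.670 for A3 and 0.290 for A4. The mismatched pairs of A1 and A4 correlated more, at 0.369 for control A4 with induced A1 and 0.348 for control A1 with induced A4, so the pairing rests on the labels. Clones were compared in a fit of condition and clone by an F test ("over all clones") and by contrasts of each clone with the mean of the others. The p-values of clones rest on 2 arrays a clone, and precision is limited by the number of arrays. Of several probe sets of a gene, the brightest is the one with the highest mean over the 6 arrays. Python 3.11.15 with matplotlib 3.10.9 drew the plots.

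The text names all probe sets of the 9 genes, of the pathway lists, the genes called over all clones and the 2 with the smallest p of induction, and for the 3 genes with the largest SD, the 3 most similar expressed genes. The genes, lists, comparisons and tests were chosen with earlier results of these data known. The tests were run on simulated data first. Alternatives were other scalings, filters on signal, eBayes options, array weights, thresholds, the methods' t-test, and leaving out arrays or clones. Protein sequences were not used here.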

Additional observations from a re-analysis of the deposited data

How the results depend on the processing

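The count of probe sets called on induction was 0 of 29 under all 22 alternatives, the clone as replicate block (0) and the methods' t-test included, and that of the 48 other pathway genes was 0 likewise. Between clones the count of 6 became 12 at an adjusted p under 0.1 and 13 with trend and robust eBayes, and it ranged from 0 to 6 when single arrays or clones were left out (0 without replicate 2, clone A3, and 2 without induced replicate 1 or induced replicate 2). The count of 4 pathway genes became 9 at an adjusted p under 0.1, 7 with a mean of at least 5, 7 among probe sets brighter than the median one, 8 with trend and robust eBayes, 9 with 1 probe set for each symbol, and 0 to 6 on leaving out arrays or clones. The 12 probe sets called in A3 became 4 with 1 probe set for each of the 9 symbols, and 2 to 9 on leaving out arrays or clones (6 without control replicate 2, 5 without induced replicate 1, 2 without induced replicate 2, 5 without replicate 1, 6 without replicate 3). Without control replicate 3 together with induced replicate 1, which left the clone fit with no residual degrees of freedom unless the condition term was dropped, the clone term alone called 0 of the 29, 0 pathway genes and 2 in A3. This fit, and the values of single called probe sets and of the Pim3 neighbours without these arrays, were chosen after seeing the data.

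For the brightest probe sets, 133 of 162 induction values kept their sign and 29, none of them called, changed it. Of 153 values for A3, 126 kept sign and call, 16 kept the sign and lost the call (Jak1 and Socs3 7 times each, Socs2 in 2 fits) and 11, of Lifr and Pim3, changed sign. The induction value changed sign for Pim1 with array medians subtracted (0.016) and with array weights (0.069), for Lifr with array weights (0.011), and without both doubted arrays for Jak1 (0.0070), Socs2 (-0.11) and Pim1 (0.12). For A3 it changed for Pim3 with medians subtracted (-0.0084) and for Lifr after quantile normalization (0.056), cyclic loess (0.033) and without both doubted arrays (0.058). On leaving out arrays or clones the induction values ranged from -0.12 to 0.081 for Il6st, -0.24 to 0.13 for Jak1, -0.24 to 0.14 for Lifr, -0.12 to 0.12 for Pim1, -0.44 to 0.29 for Pim2, -0.21 to 0.37 for Socs2, 0.15 to 0.55 for Socs3, 0.071 to 0.28 for Pim3 and -0.14 to 0.071 for Stat3, and those of A3 from -0.32 to 0.30 for Lifr and -0.10 to 0.15 for Pim3. Fits on induction without a single array leave a clone in 1 condition and so mix clone with condition. The other causes were not tested. The pairing by clone changed no call.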
